A study of Rattus norvegicus with 12 samples.

Results

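LGI proteins (leucine-rich glioma-inactivated) are secreted ligands, and ADAM11, ADAM22 and ADAM23 are the transmembrane proteins that bind them. The genes described here are the 4 ligands Lgi1, Lgi2, Lgi3 and Lgi4 and the 3 receptors Adam11, Adam22 and Adam23, 7 of the 30562 genes in the deposited count table. They were selected by their symbols, and each symbol had 1 row in the table. The set was put together with earlier results of these same libraries known, so the p-values below come from a fit over all genes and are not independent evidence for the set.

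The libraries were bulk RNA-seq of primary oligodendrocyte precursor cells (OPCs) from the cerebral cortex of wild-type Sprague-Dawley rats at postnatal day 1 or 2. Cells cultured at an FiO2 of 5% (mild-hypo-OPCs, 6 libraries) were compared with OPCs in room air (standard OPCs, 6 libraries). Both were grown with FGF-2, PDGF-AA and B27. The labels give an exposure of 6 hours, whereas the study's methods give 6 days. The study describes 3 biological replicates in each group, whereas 6 libraries of each are in the table. Nothing in the labels says which libraries came from separate cultures, so n counts libraries, and the p-values measure the spread between these libraries, which may be technical.

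LGI ligands carry leucine-rich repeats and a propeller of EPTP repeats, through which they bind their receptors. The receptors belong to the ADAM family but lack the active site of its metalloproteinases, and act as binding partners and not as enzymes. LGI1 bridges ADAM22 and ADAM23 across the synapse, and its loss causes epilepsy. LGI4 acts through ADAM22 in the myelination of peripheral nerves, and LGI3 is a product of oligodendroglia that is found with ADAM proteins and voltage-gated potassium channels beside the node of Ranvier.

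Depth differed together with the condition. Total counts lay between 4111669 and 9022324 per library in mild-hypo-OPCs, against 1356079 to 2797513 in standard OPCs, and the 20 most abundant genes took from 33.7% to 41.2% of the counts in mild-hypo-OPCs, against 43.6% to 52.0% in standard OPCs. Levels are therefore given as counts per 1000000 (CPM), scaled with edgeR's TMM factors, which correct for the composition of each library. A gene was tested where 1 or more libraries exceeded a CPM of 10 before TMM scaling (8938 genes). Lgi3, Adam11, Adam22 and Adam23 passed this filter, and Lgi1, Lgi2 and Lgi4 did not. Adam22 was above it in 4 mild-hypo-OPC libraries and 1 standard OPC library, Adam23 in 6 and 1, and Lgi3 and Adam11 in all 12. Markers of the lineage were present in both groups, such as Pdgfra, the PDGF-AA receptor of OPCs, at 233.6 ± 26.4 CPM (SD, n = 6) in mild-hypo-OPCs, against 226.7 ± 33.4 CPM (SD, n = 6) in standard OPCs. The endothelial marker Cdh5 had 0 counts in every library, which allows up to 3 counts in each.

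Among the ligands, Lgi3 was higher in mild-hypo-OPCs, by 1.65-fold. Of the members tested, 1 of 4 was called higher and 0 of 4 were called lower in edgeR's quasi-likelihood test at an adjusted p under 0.05, against 6.99% and 17.0% of all genes tested. The receptor genes Adam11, Adam22 and Adam23 were not called. At an unadjusted p under 0.05 there were also 0 members lower in edgeR, and limma-voom and DESeq2 called 0 members lower as well.

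Lgi3 (ENSRNOG00000011323) had between 519 and 958 counts per library in mild-hypo-OPCs (median 573.5), against 59 to 181 in standard OPCs (median 99). Scaled for depth, the mild-hypo-OPC libraries lay between 90.0 and 105.7 CPM (median 97.6) and the standard OPC libraries between 53.2 and 68.4 CPM (median 56.8). The groups did not overlap. The highest standard OPC library was replicate 1, and the lowest mild-hypo-OPC library was replicate 3. Such separation with mild-hypo-OPCs above was found in 2.94% of the genes tested. The means were 98.2 ± 6.32 CPM (SD, n = 6) and 59.1 ± 6.69 CPM (SD, n = 6), which is 0.72 as a log2 fold change (standard error 0.09, edgeR adjusted p = 9.53e-05). The 95% interval of the fold change ran from 1.46 to 1.87. By its p-value Lgi3 was 3rd among the genes that were higher in mild-hypo-OPCs. In bulk RNA, more cells that make Lgi3 and more Lgi3 RNA per cell cannot be told apart.

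**Figure D1:**
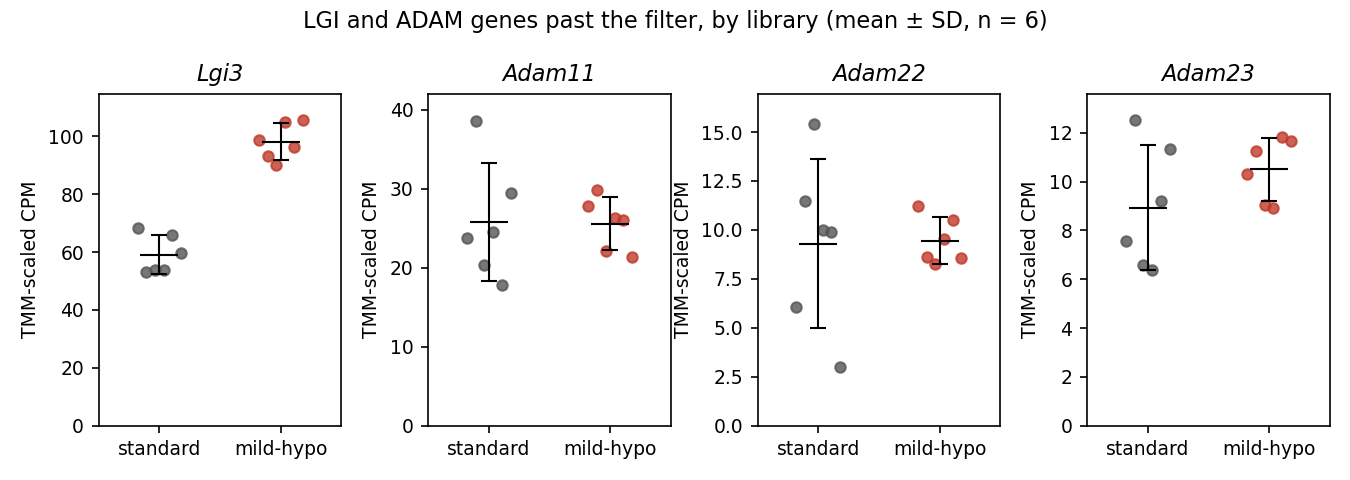
TMM-scaled CPM of Lgi3, Adam11, Adam22 and Adam23 in each library of standard OPCs (grey, n = 6) and mild-hypo-OPCs (red, n = 6), with the mean and SD as black bars. For Lgi3 the mild-hypo-OPC libraries all lie above the standard OPC libraries, and for the 3 receptors the groups overlap.

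The increase of Lgi3 did not depend on 1 library. In the 12 fits that each left out 1 library its log2 fold change lay between 0.69 and 0.78, with an adjusted p of at most 0.000596 from edgeR. Replicates 1 to 3 alone gave 0.69 and replicates 4 to 6 alone gave 0.78. Libraries left in and left out of these fits may come from the same culture, so the fits do not stand for separate cultures. The set was also put together with earlier results of these same libraries known, so no part of them is independent support. After every library was thinned to the smallest total, which equalized total counts but not the share taken by the most abundant genes, the log2 fold change was 0.76 (edgeR adjusted p = 2.75e-05). With library size only, without TMM factors, it was 1.15, a setting that moved the median of all genes to 0.42. With log2 total count entered as a covariate, the log2 fold change was 0.71, but the standard error grew to 0.18 and the call was lost (edgeR adjusted p = 0.101). In that edgeR fit 0 of all genes were called higher, 217 genes were higher at an unadjusted p under 0.05, and Lgi3 had an unadjusted p of 0.000799. Set against the median of all genes in the same fit, the change of Lgi3 stayed between 0.68 and 0.78 over the 27 alternative settings.

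**Figure D2:**
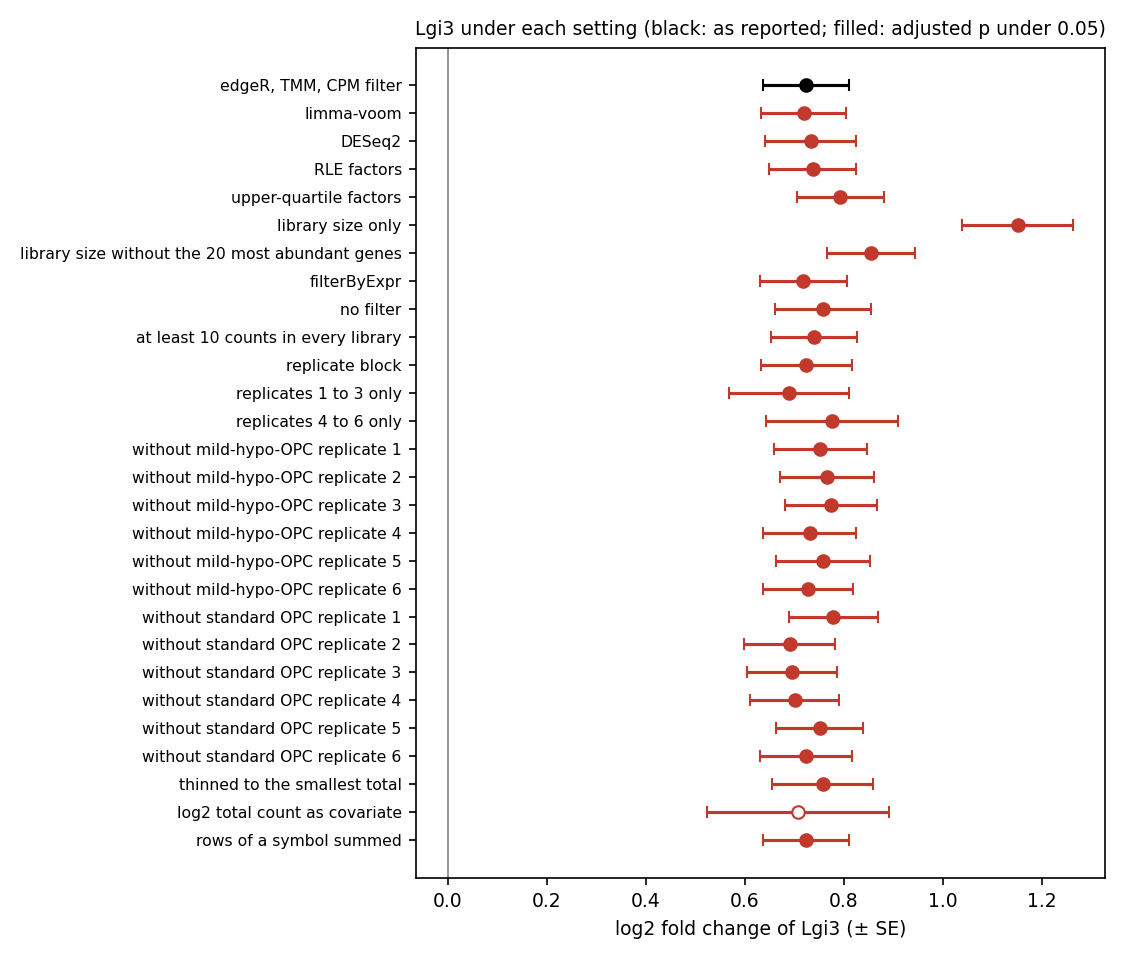
Log2 fold change of Lgi3 in mild-hypo-OPCs relative to standard OPCs (horizontal axis, with the standard error) as reported (black) and under 27 alternative settings (red), with filled points for an adjusted p under 0.05. The value exceeds 1 with library size only (1.15), and the call is lost when log2 total count is a covariate (0.71).

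The other ligands were at or near the limit of detection. Lgi4 (ENSRNOG00000021087), the ligand of peripheral myelination, had 7 to 19 counts in each mild-hypo-OPC library (median 9.5) and 0 to 3 in each standard OPC library (median 1.5). This corresponds to 1.15 to 3.02 CPM in mild-hypo-OPCs (median 1.53) and 0 to 1.98 CPM in standard OPCs (median 0.653). The mean of standard OPCs was below all 6 mild-hypo-OPC libraries, but the groups overlapped, since standard OPC replicate 5 lay above 4 of them. Without the filter the log2 fold change was 1.20 (standard error 0.55, unadjusted p = 0.0338, edgeR adjusted p = 0.153), which did not pass the threshold. Standard OPC replicates 4 and 6 had 0 counts, and a count of 0 allows up to 2.73 and 2.26 CPM in these libraries. Most of the mild-hypo-OPC values are below those limits, so a difference of Lgi4 was not detectable in them.

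Lgi2 (ENSRNOG00000066201), a ligand whose loss causes epilepsy in dogs, had 2 to 16 counts in mild-hypo-OPCs (median 9) and 0 to 4 in standard OPCs (median 3). After scaling for depth these were 1.42 ± 0.768 CPM (SD, n = 6) and 1.53 ± 1.04 CPM (SD, n = 6). The higher raw counts of mild-hypo-OPCs thus went with their greater depth, and the ranges overlapped (without the filter, log2 fold change 0.0051, standard error 0.49, edgeR adjusted p = 0.995). Lgi1 (ENSRNOG00000014758), the synaptic ligand, reached no more than 3 counts in a library. It had 7 counts over the 6 mild-hypo-OPC libraries, or 0.183 CPM (exact Poisson 95% interval 0.0736 to 0.377), and 2 counts over the 6 standard OPC libraries, or 0.194 CPM (0.0235 to 0.700). These intervals cover counting error only, and no fold change is given for Lgi1 because its counts are at or under the floor of 3 per library. Lgi3 made up between 95.9% and 97.4% of the counts of the 4 ligands in mild-hypo-OPCs, against 93.5% to 97.5% in standard OPCs.

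**Figure D3:**
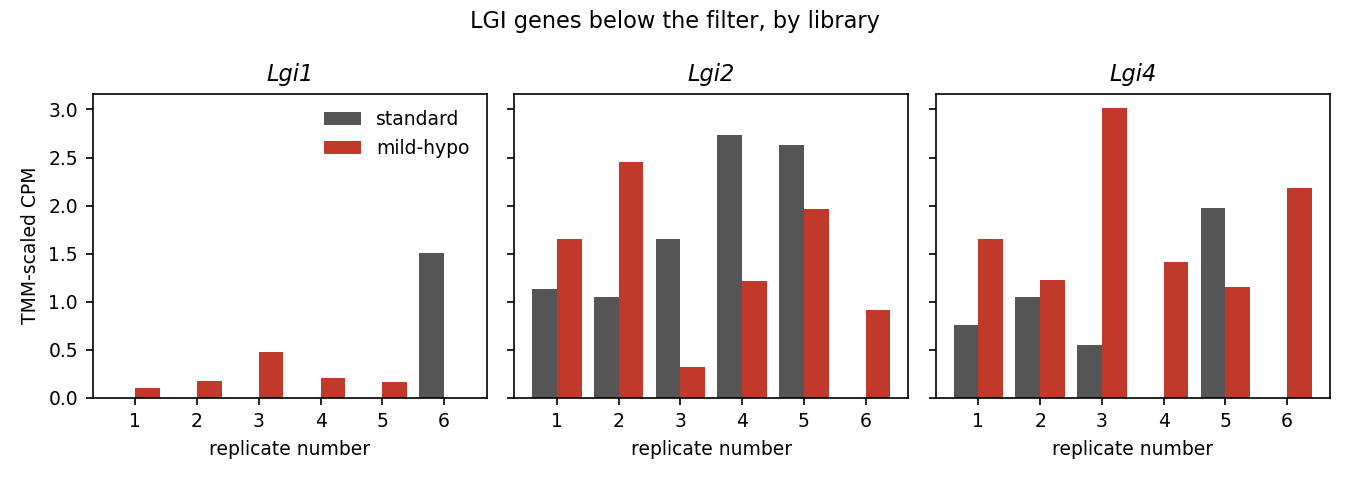
TMM-scaled CPM of Lgi1, Lgi2 and Lgi4, the ligands below the filter, in each library by replicate number (grey bars, standard OPCs; red bars, mild-hypo-OPCs). The highest value is 3.02 CPM, for Lgi4 in mild-hypo-OPC replicate 3, and libraries without a bar had 0 counts.

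Among the receptors, Adam11 (ENSRNOG00000002753), which directs potassium channels to the terminals of cerebellar basket cells, had 117 to 270 counts in each mild-hypo-OPC library (median 149) and 27 to 74 in each standard OPC library (median 38). Scaled for depth, the libraries lay between 21.3 and 29.8 CPM in mild-hypo-OPCs (median 26.2), against 17.8 to 38.6 CPM in standard OPCs (median 24.2). Both the lowest and the highest value were in standard OPCs, in replicates 5 and 2. The log2 fold change was -0.01 (standard error 0.15, edgeR adjusted p = 0.968), and the 95% interval of the fold change ran from 0.796 to 1.24. A change of Adam11 as large as the lower bound of the Lgi3 interval is outside this interval.

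Adam22 (ENSRNOG00000042478), the receptor that anchors LGI proteins to scaffolds at the synapse and beside the node, had 47 to 109 counts in mild-hypo-OPCs (median 50.5) and 4 to 28 in standard OPCs (median 15.5). The mild-hypo-OPC libraries lay between 8.25 and 11.2 CPM (median 9.06) and the standard OPC libraries between 3.02 and 15.4 CPM (median 9.94). The standard OPC libraries enclosed the others, with replicate 6 lowest and replicate 3 highest. The log2 fold change was 0.03 (standard error 0.23, edgeR adjusted p = 0.947). The interval of the fold change, 0.730 to 1.43, is wide, and with as few as 4 counts in 1 library a moderate change of Adam22 was not detectable at this depth. Its upper bound lies just below the lower bound of the Lgi3 interval, 1.46.

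Adam23 (ENSRNOG00000012424), the presynaptic partner in the LGI1 bridge, had 44 to 100 counts in mild-hypo-OPCs (median 64) and 7 to 24 in standard OPCs (median 14.5). The libraries lay between 8.91 and 11.8 CPM in mild-hypo-OPCs (median 10.8), against 6.37 to 12.5 CPM in standard OPCs (median 8.39). In mild-hypo-OPCs 5 of 6 libraries were above the mean of standard OPCs, and the highest library of all was standard OPC replicate 2. The log2 fold change was 0.23 (standard error 0.18, edgeR adjusted p = 0.380), with a fold-change interval from 0.903 to 1.53. Unlike those of Adam11 and Adam22, this interval reaches above the lower bound of the Lgi3 interval, 1.46. With library size only, Adam23 and Adam11 were called higher, with log2 fold changes of 0.66 and 0.42 (adjusted p = 0.00476 and 0.0171 from edgeR), against the median of 0.42 over all genes in that setting.

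A ratio of counts within 1 library needs no scaling factor. There were between 1.88 and 2.54 Lgi3 counts per count of the 3 receptors together in mild-hypo-OPCs (median 2.14), against 0.850 to 1.83 in standard OPCs (median 1.34). The groups did not overlap, although the gap between mild-hypo-OPC replicate 2 and standard OPC replicate 1 was small. Against each receptor alone the groups overlapped. For Adam11 3 of 6 mild-hypo-OPC libraries lay above the highest standard OPC library (3.12 to 4.96 Lgi3 counts per Adam11 count, against 1.38 to 3.70). For Adam22 this held for 0 of 6 (8.79 to 12.3, against 3.50 to 19.8), and for Adam23 for 4 of 6 (8.17 to 11.8, against 4.25 to 9.05). Against all other genes tested, taken singly, the ratio of Lgi3 separated the groups in this direction for 57.0%, and the separation from the summed receptors is read against that share. The ratio is not a ratio of molecules, because the length of the transcripts does not enter it, and for the same reason the levels of the 7 genes are not ranked against each other. The shares of the 3 receptors in their summed counts overlapped between the groups. Adam11 gave a median of 56.2% of them in mild-hypo-OPCs and 60.8% in standard OPCs, Adam22 gave 21.1% and 21.4%, and Adam23 gave 22.8% and 20.1%.

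Lgi3 was also set against each tested gene of the OPC and oligodendrocyte marker lists in the same library. For 11 of 19 markers the groups did not overlap, with mild-hypo-OPCs above, a share close to the 57.0% over all other genes tested. The median ratio of Lgi3 to the marker was higher in mild-hypo-OPCs for all 19 markers. That direction was largely fixed in advance, because the log2 fold change of Lgi3 was larger than that of each marker. Per 1000 counts of Mbp, the myelin basic protein gene, there were 13.2 to 15.1 Lgi3 counts in mild-hypo-OPCs (median 13.9) and 8.58 to 12.1 in standard OPCs (median 10.3). Per 1000 counts of Olig2, a transcription factor of the whole lineage, there were 294.7 to 357.4 (median 326.7) and 170.5 to 242.1 (median 209.1). Against Cldn11, a tight-junction gene of myelinating cells, the ranges overlapped, with 222.3 to 263.6 Lgi3 counts per 1000 (median 246.8) in mild-hypo-OPCs and 182.1 to 281.0 (median 214.3) in standard OPCs. Cldn11 itself was higher, with a log2 fold change of 0.54 (edgeR adjusted p = 0.00155). The ratio also overlapped for Gpr17, Mag and Myrf, which were called higher, and for Cspg4, Sox10, Vcan and Mobp, which were not called.

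**Figure D4:**
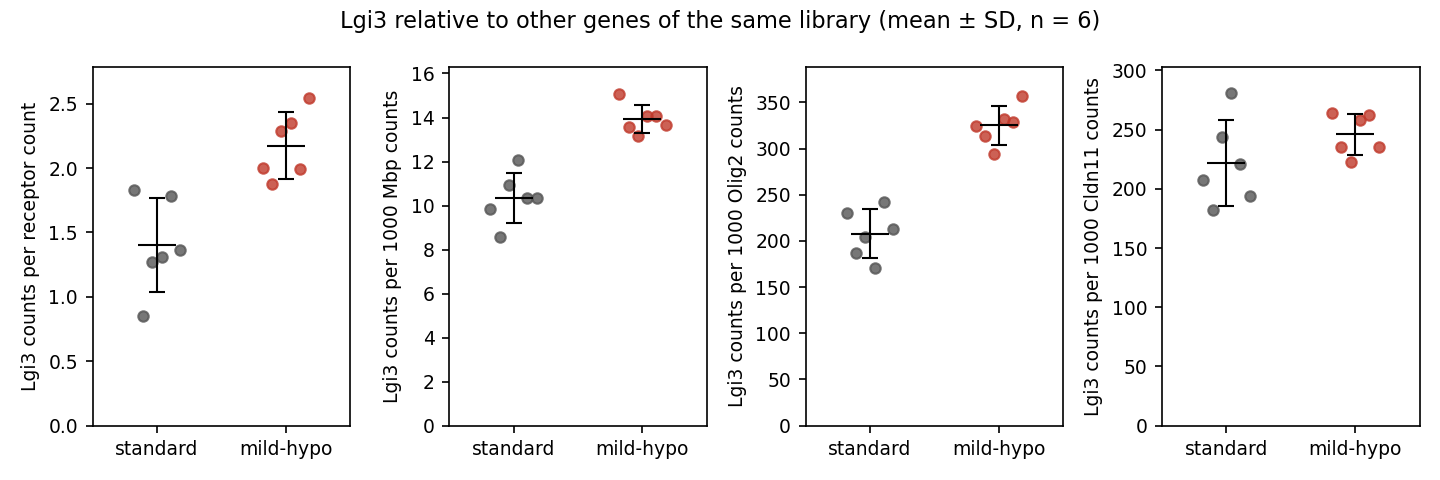
Lgi3 counts per receptor count (Adam11, Adam22 and Adam23 summed) and per 1000 counts of Mbp, Olig2 and Cldn11 in each library of standard OPCs (grey) and mild-hypo-OPCs (red), with the mean and SD (n = 6 per group). The groups are apart in the first 3 plots and overlap for Cldn11. Over the 19 markers examined, they are apart for 11 and overlap for 8.

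Markers of differentiation and of other cells moved in the same comparison as Lgi3. Of 10 oligodendrocyte markers tested, 6 were called higher and 0 lower, with a median log2 fold change of 0.26 against -0.0031 over all genes. Over all genes tested, 6.99% were called higher and 17.0% lower. The summed level of the oligodendrocyte markers ran from 13350 to 14650 CPM in mild-hypo-OPCs and from 9133 to 13130 CPM in standard OPCs. Mbp, the most abundant of them, averaged 7049 CPM in mild-hypo-OPCs, against 5783 CPM in standard OPCs. Its groups overlapped, and it was not called in edgeR (log2 fold change 0.29, edgeR adjusted p = 0.0555), nor were Mog, Mobp and Aspa. The count depended on the test, since limma-voom and DESeq2 each called 7 of these markers higher. In edgeR 7 had an unadjusted p under 0.05. Cldn11, Mag and Myrf had the largest changes, of 0.54, 0.47 and 0.38 on the log2 scale, and each was smaller than that of Lgi3, a difference that was not tested. The call of Myrf was lost in 7 of the 12 fits without 1 library (edgeR adjusted p up to 0.103). Of 9 OPC markers tested, 1 was called higher, Gpr17, a receptor of committed precursors (0.45). Neuron markers summed to 286.4 to 318.4 CPM in mild-hypo-OPCs and 190.4 to 238.4 CPM in standard OPCs. Of 7 tested, the neuronal tubulin gene Tubb3 (0.72) and Dlx1 (0.82), a transcription factor of interneurons, were called higher, and Slc17a7, which defines excitatory neurons, had at most 1 count in any library. Of 7 astrocyte markers tested, Aqp4 (0.79) and Slc1a3 (0.25) were called higher and S100b (-0.46) lower, and the summed level ran from 841.8 to 983.9 CPM in mild-hypo-OPCs and from 794.3 to 895.9 CPM in standard OPCs. Microglia markers summed to 41.7 to 59.3 CPM and 14.6 to 40.7 CPM, and Csf1r (0.61) and C1qb (0.76) were called higher among 3 tested. These 2 calls were lost in 3 and 6 of the 12 fits without 1 library. Their part in the difference of Lgi3 was not tested. Of 7 Schwann cell markers, whose lineage uses LGI4, only Pmp2 passed the filter, and it was lower (-0.50). Of 9 mesenchymal and endothelial markers, 0 passed the filter.

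Proteins that work with ADAM22 were examined as a list of 22 genes, which holds the membrane-associated scaffolds that bind its tail, potassium channels of the juxtaparanode, and AMPA receptors with their auxiliary subunits. In this list 10 genes were tested, and 3 were called higher and 0 lower, against 6.99% and 17.0% of all genes tested. The median log2 fold change of the 10 genes was 0.19. The scaffold gene Dlg1 rose from 52.1 ± 7.44 to 66.2 ± 3.15 CPM (SD, n = 6 each), a log2 fold change of 0.33 (edgeR adjusted p = 0.0120). Kcna6, which encodes a potassium channel, had 1 to 22 counts per standard OPC library and a log2 fold change of 0.81, and Cacng4, an AMPA-receptor auxiliary subunit, had 0.26. Both calls were weak, with an adjusted p of 0.0398 and 0.0487 from edgeR, and were lost in 7 and 6 of the 12 fits without 1 library. The scaffold genes Dlg3 and Dlg4 had log2 fold changes of 0.20 and 0.19 (adjusted p = 0.228 and 0.206 from edgeR) and the channel gene Kcna1 had 0.19 (edgeR adjusted p = 0.383). The AMPA receptor genes Gria2, Gria3 and Gria4 had log2 fold changes of -0.03, -0.14 and -0.05 (edgeR adjusted p = 0.850, 0.278 and 0.842), and Cacng7, another auxiliary subunit, had 0.18 (edgeR adjusted p = 0.127). Cntnap2 and Cntn2, cell adhesion genes of the juxtaparanode, had at most 4 and 6 counts in any library, so this complex was only partly measurable in these cultures.

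**Figure D5:**
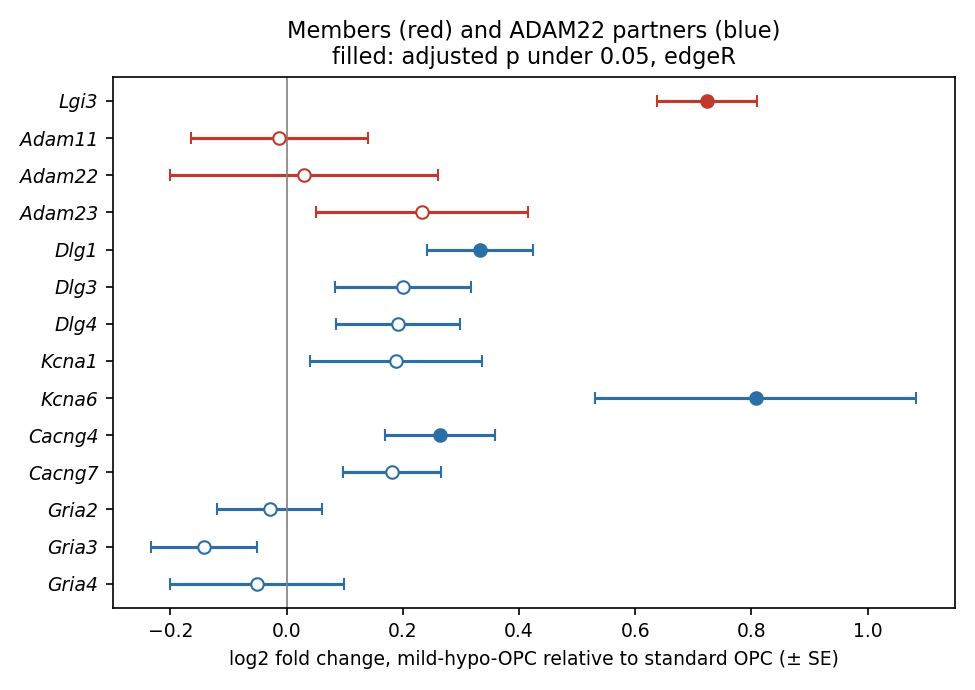
Log2 fold change in mild-hypo-OPCs relative to standard OPCs, with the standard error, of the 4 members tested (red) and the 10 tested genes of the ADAM22 partner list (blue), with filled points for an adjusted p under 0.05 in edgeR. Lgi3 (0.72), Dlg1 (0.33), Kcna6 (0.81) and Cacng4 (0.26) are filled.

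The 14-3-3 proteins bind the cytoplasmic tail of ADAM22. Of 6 tested genes Ywhag was higher (0.27) and Ywhaq lower (-0.27), and the call of Ywhaq was lost in 7 of the 12 fits without 1 library (edgeR adjusted p up to 0.117). The other ADAM genes encode mostly active proteases, such as Adam10 and Adam17. Of 6 tested, 0 were called in either direction by edgeR, limma-voom or DESeq2, and 0 had an unadjusted p under 0.05, with log2 fold changes between 0.04 for Adam9 and 0.20 for Adam15. Of 20 tested leucine-rich repeat surface proteins, a class that shares the repeats of the LGI ligands, 4 were called higher and 0 lower. They were Lrfn1 (0.53), Lingo1 (0.43), Slitrk5 (0.42) and Lrrc4 (0.31), and each change was smaller than that of Lgi3, which was not tested. Lingo1, a surface protein known to restrain oligodendrocyte differentiation, averaged 51.8 ± 2.08 CPM (SD, n = 6) in mild-hypo-OPCs, against 38.2 ± 2.97 CPM (SD, n = 6) in standard OPCs (edgeR adjusted p = 0.000997). Of 13 tested axon-glial contact genes, 3 were called higher and 0 lower, among them Gjc3 (0.53), a gap junction gene, and Mag (0.47), an adhesion gene of myelin. The counts in these lists stand against 6.99% called higher and 17.0% called lower over all genes tested. Every call in these lists was lost with log2 total count as a covariate, as was that of Lgi3.

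Across the 12 libraries the genes whose log2 CPM was most like that of Lgi3 were Rtn1 (Pearson r = 0.96), Ano4 (0.96) and H19 (0.94), an endoplasmic reticulum protein gene, a membrane protein gene and an imprinted non-coding RNA. All 3 were called higher, with log2 fold changes of 0.37, 0.45 and 0.67. After the mean of each group was subtracted, other genes led, with AABR07046707.1 (0.88), Znrd2 (0.87), Pnkd (0.86), Ube2j1 (0.85) and Abcb8 (0.84), so the first ranking rests mainly on the difference between the groups. Adam11 was most like Caskin2 (0.91), Esf1 (0.90) and Ccdc88c (0.88), Adam22 most like Kctd1 (0.95), Psme3ip1 (0.94) and Zyg11b (0.93), and Adam23 most like Foxred2 (0.90), Acap3 (0.88) and Trappc12 (0.88). These are the highest of 8937 values each over 12 libraries that share depth and scaling, and are given as a description. Among the 4 members themselves r ranged from -0.23 for Adam22 with Adam23 to 0.52 for Adam11 with Adam23, and for Lgi3 it was -0.07 with Adam11, 0.04 with Adam22 and 0.42 with Adam23. After the mean of each group was subtracted, these 3 values were -0.38, -0.37 and 0.04, and Adam11 with Adam23 had 0.56.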

How the data were processed

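The authors trimmed reads with Trimmomatic 0.36, used STAR 2.7.9a with the mRatBN7.2 build, and estimated expression with RSEM 1.3.3, per the submitters' processing notes. The deposited table holds raw counts as whole numbers, 1 row per Ensembl gene, and how RSEM's estimates were made whole is not given in the sources used here. All 12 columns were used, and 0 were left out. Groups came from the library titles. Libraries of 1 group differed by more than sampling noise (chi-square per degree of freedom of at least 3.22), so each was counted once.

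Genes exceeding a CPM of 10 in 1 or more libraries were fitted in R 4.3.3 with edgeR 4.0.16 (TMM, glmQLFit and glmQLFTest, condition as the only term) and called at a Benjamini-Hochberg adjusted p under 0.05 over all genes. Standard errors follow from the F statistic. The filter is that of the study's methods, and its test, limma-voom (limma 3.58.1), was an alternative, as was DESeq2 1.42.0. Correlations used log2 CPM with a prior count of 2. Members, lists and settings were chosen with earlier results of these data known. From each list at most 4 higher and 4 lower called genes with the largest change were named, beside genes a result turned on, and other genes were named after their values were seen.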

Additional observations from a re-analysis of the deposited data

How the results depend on the processing

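The log2 fold change of Lgi3 was positive in all 27 alternatives and called in 26, with values from 0.69 to 1.15 and an adjusted p between 3.02e-12 (DESeq2) and 0.101 (edgeR with log2 total count as a covariate). It was 0.72 with limma-voom and 0.73 with DESeq2. The number of members called higher was 1 as reported, 3 with library size only and 0 with the log2 total count covariate (edgeR; 1 member at an unadjusted p under 0.05). No member tested was called lower in any of these settings. Of the genes in the 12 lists 25 were called, against 81 with library size only, 44 with library size without the 20 most abundant genes, 4 in replicates 1 to 3, 16 after thinning and 0 with the log2 total count covariate (edgeR; 4 at an unadjusted p under 0.05). Adam11 lay near 0 and changed sign, with 0.0133 by limma-voom, 0.0549 with upper-quartile factors, 0.42 with library size only, 0.12 with library size without the 20 most abundant genes, 0.0217 without the filter, 0.0036 with at least 10 counts in every library, 0.0601 in replicates 4 to 6 and 0.0063 after thinning, and from -0.0943 to 0.156 when 1 library was left out. Adam22 changed sign to -0.13 in replicates 1 to 3 and -0.33 with the covariate, and ranged from -0.12 to 0.25 when 1 library was left out. The causes of these shifts were not tested. Same-numbered libraries did not deviate together (r from -0.28 to 0.30, and 1 of 6 best matched to its own number), so the numbers were not taken to pair them. With the replicate number as a block, Lgi3 was 0.72, Adam11 was 0.0111, and 572 genes were called higher and 1471 lower, against 625 and 1520. Depth limits Lgi1, Lgi2 and Lgi4, which could be fitted only without the filter.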

Other observations

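On the GRCr8 assembly of RefSeq, which is not the build of the counts and was used for gene order only, Lgi3 lies between Sftpc, a lung surfactant gene, and Reep4. Sftpc had at most 2 counts in any library and Reep4 between 2 and 55, against 59 to 958 for Lgi3. Adam11 lies beside Ccdc43, which was lower in mild-hypo-OPCs (log2 fold change -0.50, adjusted p = 0.00518 from edgeR), and Adam22 lies beside Sri, which was also lower (-0.32, adjusted p = 0.0303 from edgeR), while neither receptor gene was called.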
